A study of Mus musculus with 6 samples.

Results

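Necroptosis and pyroptosis are lytic forms of regulated cell death, and 10 genes that carry them out were followed in the kidneys of cisplatin-treated mice: Ripk1, Ripk3, Mlkl, Zbp1, Gsdmd, Casp1, Casp4, Nlrp3, Pycard and Il18. These genes were chosen by name, and all 10 were found among the 54532 genes of the deposited tables. RNA of the kidney was sequenced from 3 WT mice (replicates 1, 2 and 3) and 3 Trpm2-/- mice (labelled KO, replicates 1, 2 and 4), strain C57BL/6J by the labels. Every mouse, the WT controls included, had received cisplatin, a platinum anticancer drug that injures tubules, at 18 mg/kg and was sampled at 72 h, so a level in untreated kidney was not analysed here. The labels give an age of 6 to 8 weeks, while the study's methods give an older range for cisplatin-treated mice. According to those methods the mice were male, the Trpm2-/- allele lacks a pair of exons that encode transmembrane parts of the TRPM2 cation channel, and no cell-type-specific driver is named. The WT mice were purchased and the Trpm2-/- mice came from another institution, so genotype and origin cannot be told apart. The question behind the comparison was how loss of TRPM2 alters gene expression in the injured kidney.

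In necroptosis, death receptors, Toll-like receptors or the nucleic acid sensor ZBP1 bring together the kinases RIPK1 and RIPK3 through a short shared stretch, the RIP homotypic interaction motif (RHIM). RIPK3 then phosphorylates MLKL, which permeabilises the plasma membrane. In pyroptosis, sensors such as NLRP3 assemble with the adaptor ASC (Pycard) and caspase-1 (Casp1), or caspase-11 (Casp4) senses intracellular lipopolysaccharide. These caspases cleave gasdermin D (Gsdmd) into a pore-forming fragment, and caspase-1 also matures interleukin-18 (Il18). Both pathways have been studied in tubular injury, and the activity of most of these proteins is set by cleavage, phosphorylation or assembly, which transcript levels do not measure.

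The coding stretches around the RHIM are shown because they are what the 3 necroptosis genes of this family have in common, and because they bear on whether reads of one gene could be counted on another. Each is 36 coding bases, 5′ to 3′ on the coding strand, from the principal transcript of the GENCODE M21 annotation, with the 12-base core (4 codons, for isoleucine or valine, glutamine, an aliphatic residue and glycine) in capitals. Positions are counted from the first base of the start codon.
Ripk1, coding bases 1570 to 1605: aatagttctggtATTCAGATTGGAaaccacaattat
Ripk3, coding bases 1330 to 1365: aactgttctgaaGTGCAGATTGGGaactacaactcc
Zbp1, coding bases 562 to 597: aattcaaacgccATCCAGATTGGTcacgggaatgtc
Zbp1, coding bases 730 to 765: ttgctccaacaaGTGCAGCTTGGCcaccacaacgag

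The Ripk1 and Ripk3 stretches shared 25 of 36 bases, with 9 of the 12 in the core. The first Zbp1 stretch shared 19 of 36 bases with Ripk1 and 18 with Ripk3. Across whole transcripts, no window of 75 bases (a length chosen here) in Ripk3, Mlkl, Zbp1, Gsdmd, Casp1, Casp4, Nlrp3 or Il18 was found in another gene. For Ripk1, 7.27% of windows were shared with the antisense neighbour Serpinb6a or the pseudogene Gm17084, and for Pycard 10.9% were shared with the antisense transcript Gm45205. Serpinb6a had 10858 counts over the 6 libraries, Gm17084 had 0 and Gm45205 had 68. Whether the counting used strand is not given in the sources used here, so Ripk1 and Pycard counts may hold reads of these partners.

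In the deposited tables Ripk1 (ENSMUSG00000021408) lies at chr13:34002363-34037147 on the plus strand, Ripk3 (ENSMUSG00000022221) at chr14:55784995-55788865 on the minus strand, Mlkl (ENSMUSG00000012519) at chr8:111311797-111338177 on the minus strand and Zbp1 (ENSMUSG00000027514) at chr2:173206612-173218923 on the minus strand. Casp1 (ENSMUSG00000025888, chr9:5298517-5307265) and Casp4 (ENSMUSG00000033538, chr9:5308828-5336783) are neighbours on the plus strand. Il18 (ENSMUSG00000039217) lies on the same chromosome at chr9:50554827-50581840, also on the plus strand. Gsdmd (ENSMUSG00000022575) lies at chr15:75862327-75867408 and Nlrp3 (ENSMUSG00000032691) at chr11:59541568-59566956, both on the plus strand, and Pycard (ENSMUSG00000030793) at chr7:127989708-127993867 on the minus strand. The 10 positions equal those of GENCODE M21 on GRCm38, although the labels name mm9.

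The libraries held 14053307 to 17150089 counts, and a count of 3 corresponded to 0.184 to 0.205 CPM, a level in counts scaled to 1 common library size with TMM normalization. The libraries carried the markers of kidney: the summed CPM of 9 proximal tubule markers was 4798 to 6420 in WT and 2039 to 2487 in Trpm2-/- mice. All 9 fell at an adjusted p under 0.05, as did 7.28% of all genes tested. Trpm2 itself had 5, 5 and 27 counts in WT mice and 10, 16 and 20 in Trpm2-/- mice. This whole-gene count covers the exons that the allele keeps, so it does not check the genotype labels. Of the 15816 genes that passed the filter on low counts, 750 were higher and 1152 lower in Trpm2-/- mice at an adjusted p under 0.05 (edgeR's quasi-likelihood test, Benjamini-Hochberg adjustment over all genes tested). The p-values measure the spread between these 6 mice only. In RNA of the whole kidney, fewer cells of a type and less RNA per cell cannot be told apart.

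Ripk3, the kinase that activates MLKL, was higher in Trpm2-/- kidneys at an adjusted p of 0.0497 in edgeR's test, just under the threshold. No other member passed the test in either direction. The Ripk3 call was lost in 7 of 16 alternative fits, and it held in 1 of the 6 that left out a mouse. The members themselves split into 8 genes that were counted deeply enough to be tested and 2, Casp1 and Nlrp3, that were nearly absent from all 6 kidneys. One of the 8 tested members (Ripk3) had an adjusted p under 0.05, where 12% of all genes tested did (4.74% higher and 7.28% lower in Trpm2-/- mice). None passed the study's own threshold, an absolute log2 fold change above 1 with p under 0.05, which 7.6% of genes tested passed (3.5% higher in Trpm2-/- mice). Fold changes are given as Trpm2-/- against WT.

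**Figure D1:**
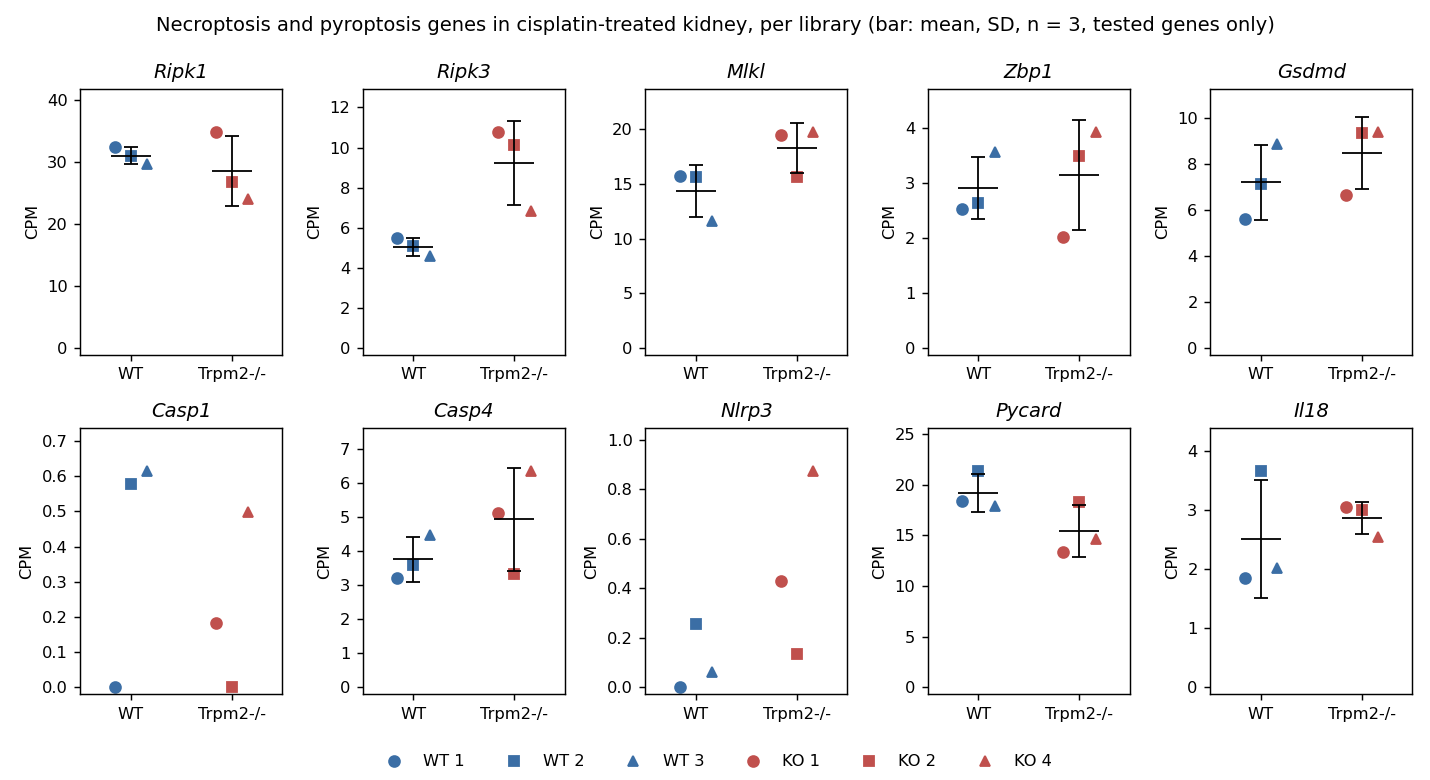
CPM (y axis, from 0) of each of the 10 genes in the 3 WT libraries (blue) and 3 Trpm2-/- libraries (red), with bars for the mean and SD (n = 3) of the 8 genes that were tested. Ripk3 is the tested gene whose Trpm2-/- libraries (6.85 to 10.8 CPM) all lie above the WT libraries (4.60 to 5.49 CPM), while the points of the other 7 tested genes overlap.

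The plot of CPM by library shows the members in their pathways. Zbp1, the sensor that engages RIPK3 in response to nucleic acids, had 2.53, 2.63 and 3.56 CPM in WT mice 1, 2 and 3 and 2.02, 3.48 and 3.92 CPM in Trpm2-/- mice 1, 2 and 4. The lowest and the highest of these were both Trpm2-/- mice, and the genotypes overlapped. Its log2 fold change was 0.11 (SE 0.345, 95% interval −0.66 to 0.88, adjusted p = 0.872 in edgeR's quasi-likelihood test). Zbp1 is itself induced by interferon, and of 26 interferon-stimulated genes and interferon factors, 25 were tested. None passed an adjusted p under 0.05 in edgeR's test, where 12% of all genes tested did. Of the 25, 13 were above and 12 below 0, beside 51.6% of all genes tested above 0, with a median log2 fold change of 0.05. DESeq2 called 1 of them. The members of that list with the smallest p were Isg15 (37.9, 27.8 and 47.2 CPM in WT, 20.1, 31.5 and 20.5 CPM in Trpm2-/- mice, adjusted p = 0.102) and Bst2 (133, 115 and 136 CPM against 85.8, 116 and 76.0 CPM, adjusted p = 0.104), both with lower means in Trpm2-/- mice.

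Ripk1, the kinase and scaffold that passes death receptor signals either to survival or to death, drew the most counts of the 10 genes. It had 32.4, 31.0 and 29.7 CPM in WT mice and 34.8, 26.8 and 24.0 CPM in Trpm2-/- mice. The WT values lay close together, and the Trpm2-/- values ran from above to below them. Trpm2-/- against WT gave a log2 fold change of −0.12 (SE 0.161, 95% interval −0.48 to 0.24, adjusted p = 0.678), and without Trpm2-/- mouse 4 it was 0.00.

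Ripk3 had 5.49, 5.08 and 4.60 CPM in WT mice, from 89, 79 and 75 counts. In Trpm2-/- mice it had 10.8, 10.1 and 6.85 CPM, from 176, 148 and 110 counts. The genotypes did not overlap, a separation with Trpm2-/- above WT that 16.7% of all genes tested also showed (33.5% in either direction). Trpm2-/- mouse 4 stood nearer to WT than the other 2 Trpm2-/- mice did. The means were 5.06 ± 0.444 CPM in WT and 9.24 ± 2.10 CPM in Trpm2-/- mice (SD, n = 3). The log2 fold change was 0.87 (SE 0.247, 95% interval 0.32 to 1.42), with an unadjusted p of 0.00593 and an adjusted p of 0.0497 in edgeR's quasi-likelihood test. It was the 1 tested member with an unadjusted p under 0.05, which 28.3% of all genes tested had. The adjusted p lay just under the threshold of 0.05, and it was not kept in every setting: of 16 alternatives, 9 passed and 7 did not, with adjusted p from 0.0170 to 0.196. The log2 fold change was above 0 in all 16, from 0.62 to 1.05. It passed in 1 of the 6 fits that left out a mouse, the one without Trpm2-/- mouse 4 (log2 fold change 1.05). Without WT mouse 1, 2 or 3, or Trpm2-/- mouse 1 or 2, the adjusted p was 0.0875, 0.157, 0.196, 0.134 and 0.0972, respectively.

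Mlkl, the executioner of necroptosis, had 15.7, 15.7 and 11.7 CPM in WT mice and 19.5, 15.6 and 19.7 CPM in Trpm2-/- mice. Trpm2-/- mice 1 and 4 stood above all WT mice, but Trpm2-/- mouse 2 fell among them. Its fitted log2 fold change was 0.35 (SE 0.187, 95% interval −0.07 to 0.77, adjusted p = 0.258). Leaving out 1 mouse gave 0.21 (without WT mouse 3) to 0.45. The 95% interval includes no change. Its upper end lies below the Ripk3 estimate of 0.87 from the same test and inside the Ripk3 interval of 0.32 to 1.42.

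**Figure D2:**
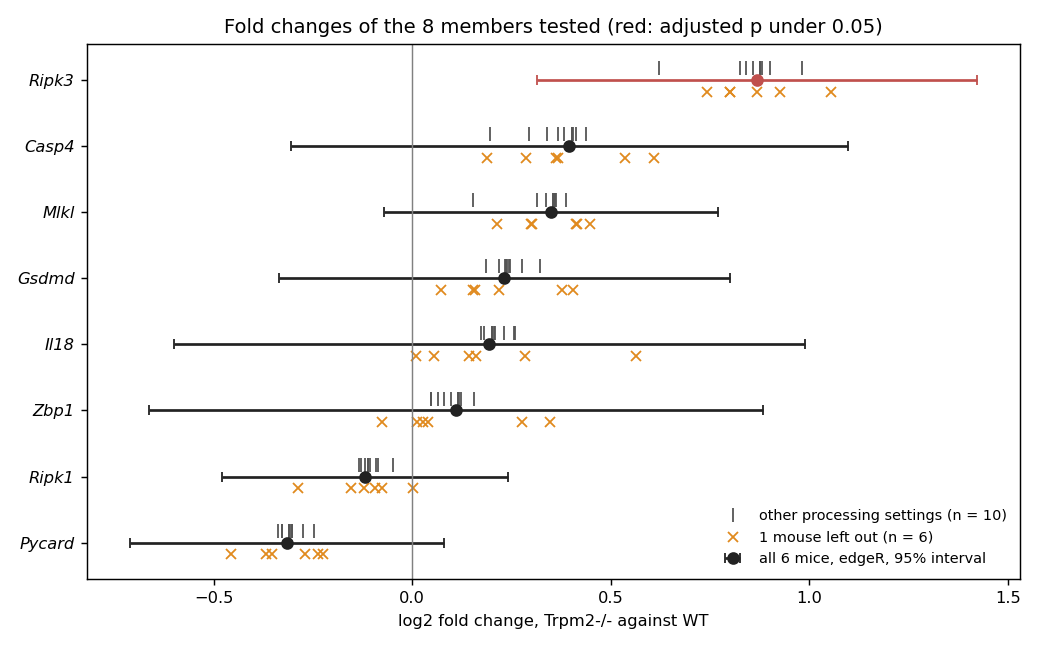
Log2 fold change of Trpm2-/- against WT (x axis) for the 8 tested genes (y axis), with the estimate from all 6 mice and its 95% interval as a point and bar (red: adjusted p under 0.05), 10 other processing settings as ticks and 6 fits without 1 mouse as crosses. The Ripk3 interval runs from 0.32 to 1.42, and the intervals of the other 7 genes cross 0.

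The plot of fold changes shows how far each estimate moved when the processing changed or a mouse was left out. The marks of Ripk3 stayed to the right of 0.62, those of Pycard stayed below 0, and those of Ripk1 and Zbp1 crossed 0 without Trpm2-/- mouse 4. Because both kinases were measured in the same library, their ratio does not depend on library size. The FPKM of Ripk3 divided by that of Ripk1 was 0.617, 0.597 and 0.564 in WT mice. In Trpm2-/- mice it was 1.13, 1.37 and 1.04. In FPKM, Ripk3 was thus below Ripk1 in each WT kidney and above it in each Trpm2-/- kidney, with means of 0.593 ± 0.0267 and 1.18 ± 0.173 (SD, n = 3). The order depends on the length used: per kilobase of principal transcript, Ripk3 was above Ripk1 in Trpm2-/- mice 1 and 2 but not in mouse 4, where Ripk3 had 3.62 and Ripk1 3.71 CPM per kilobase.

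The ratio of Mlkl to Ripk1 in FPKM was 1.76, 1.83 and 1.42 in WT and 2.02, 2.11 and 2.98 in Trpm2-/- mice, again without overlap. The ratio of Ripk3 to Mlkl overlapped: it was 0.351, 0.325 and 0.397 in WT and 0.556, 0.649 and 0.349 in Trpm2-/- mice, since mouse 4 combined the lowest Ripk3 with the highest Mlkl of its group. Of 6 ratios computed, the 3 without overlap (Ripk3 to Ripk1, Mlkl to Ripk1 and Gsdmd to Pycard) had p = 0.1 in a two-sided exact permutation test, the smallest p that 3 against 3 mice allow, and an adjusted p of 0.2 over the 6 ratios. In the same exact permutation test p was 0.3 for Ripk3 to Mlkl, 0.2 for Il18 to Pycard and 0.6 for Casp4 to Gsdmd.

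**Figure D3:**
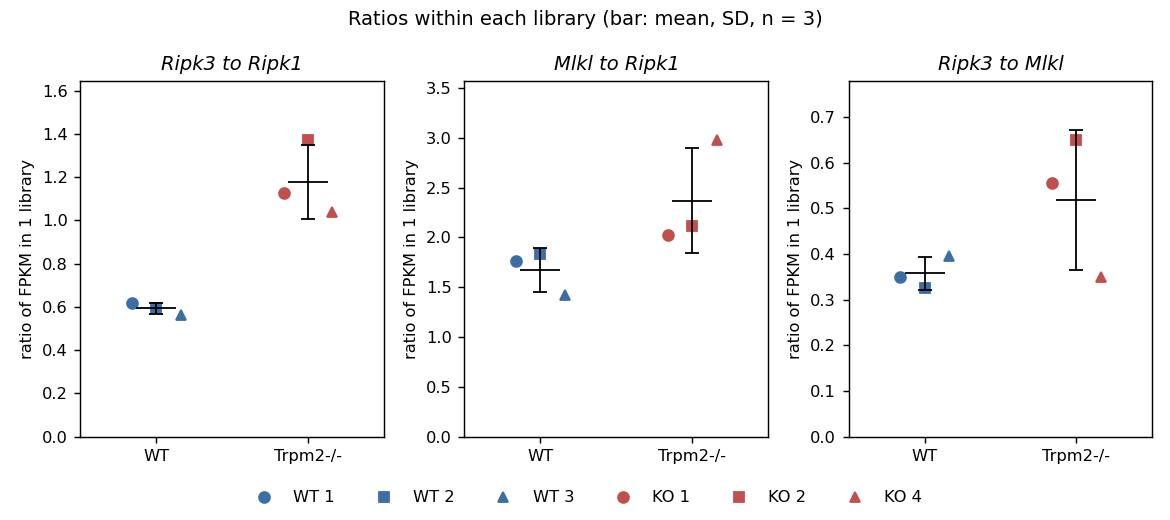
Ratio of FPKM within 1 library (y axis, from 0) for Ripk3 to Ripk1, Mlkl to Ripk1 and Ripk3 to Mlkl in WT (blue) and Trpm2-/- mice (red), with bars for the mean and SD (n = 3). The Ripk3 to Ripk1 ratios lie between 0.564 and 0.617 in WT and between 1.04 and 1.37 in Trpm2-/- mice, while the Ripk3 to Mlkl ratios overlap.

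The bases before the transcript start are shown for Ripk3, which rose, and for its partner Ripk1, which did not pass the test. They are the 250 bases upstream of the RefSeq start on GRCm38.p6, 5′ to 3′ on the gene's strand, with GC boxes (GGGCGG or, on the other strand, CCGCCC) in capitals. The Ripk3 window overlaps the deposited gene by a few bases because its RefSeq start lies inside it.
Ripk3, chr14:55788858-55789107, minus strand: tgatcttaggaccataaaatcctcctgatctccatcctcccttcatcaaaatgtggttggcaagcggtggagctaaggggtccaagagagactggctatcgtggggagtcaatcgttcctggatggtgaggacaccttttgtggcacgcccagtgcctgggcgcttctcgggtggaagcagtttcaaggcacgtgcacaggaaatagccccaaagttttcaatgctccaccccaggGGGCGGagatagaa
Ripk1, chr13:34002113-34002362, plus strand: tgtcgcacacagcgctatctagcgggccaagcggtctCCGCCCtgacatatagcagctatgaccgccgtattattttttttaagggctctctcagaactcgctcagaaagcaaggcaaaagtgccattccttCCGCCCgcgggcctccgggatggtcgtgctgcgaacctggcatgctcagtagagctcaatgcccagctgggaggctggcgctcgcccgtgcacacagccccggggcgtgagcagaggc

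The Ripk3 window held 8 CpG dinucleotides and 54.0% GC, and the Ripk1 window held 19 CpG and 60.8% GC. Ripk3 had 1 GC box, 14 bases upstream of the start, and Ripk1 had 2, at 213 and 118 bases. GC boxes occurred in 32.7% of all 32851 promoter windows of the same length. Of the 10 members, 8 had promoter entries (11 entries in all). Neither printed window held the letters of an interferon regulatory factor core, AANNGAAA on either strand, which 21.3% of all windows hold and which windows of Pycard, Casp4, Il18 and Nlrp3 held. The 10-base kappaB consensus (7.25% of all windows, either strand) was not in either printed window, and it was in both Casp4 entries, where matches overlap, and in 1 Nlrp3 entry. A TATA box (TATAAA, 12.4%, either strand) was in 1, that of Il18. A second Ripk1 entry, downstream of the first, held 2 matches to the interferon-gamma-activated site TTCNNNGAA, which 7.02% of all windows hold.

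On the pyroptosis side, the sensor and the caspase of the canonical inflammasome were at the limit of detection. Nlrp3 had 0, 4 and 1 counts in WT mice and 7, 2 and 14 counts in Trpm2-/- mice. These are totals of 5 and 23 counts, or 0, 0.257 and 0.0613 CPM against 0.428, 0.137 and 0.872 CPM. The 0 in WT mouse 1 allows up to 0.185 CPM, and the genotypes overlapped. Casp1 had 0, 9 and 10 counts in WT mice and 3, 0 and 8 counts in Trpm2-/- mice, which is at most 0.613 CPM. Neither gene passed the filter. When all genes with a count were fitted, Nlrp3 had a log2 fold change of 2.10 (SE 1.05, unadjusted p = 0.0448, adjusted p = 0.237 in edgeR's test) and Casp1 of −0.78 (SE 0.945, adjusted p = 0.646). With these few counts neither difference passed the adjusted test, although Nlrp3 without the filter was past the study's threshold.

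Pycard, the adaptor ASC that links sensors to caspase-1, was readily detected, at 18.4, 21.3 and 17.9 CPM in WT mice and 13.4, 18.3 and 14.6 CPM in Trpm2-/- mice. Trpm2-/- mice 1 and 4 lay below every WT mouse, and Trpm2-/- mouse 2 lay within the WT range. Its log2 fold change was −0.32 (SE 0.177, 95% interval −0.71 to 0.08, adjusted p = 0.279). It was the tested member with the lowest fold change, and it stayed between −0.46 and −0.22 when any 1 mouse was left out.

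Casp4, which encodes the mouse non-canonical inflammatory caspase known as caspase-11, had 3.21, 3.60 and 4.48 CPM in WT mice and 5.14, 3.35 and 6.35 CPM in Trpm2-/- mice. Again Trpm2-/- mice 1 and 4 were above every WT mouse and Trpm2-/- mouse 2 was not, here being below all but the lowest WT mouse. For Casp4 the log2 fold change was 0.40 (SE 0.313, 95% interval −0.30 to 1.10, adjusted p = 0.450), which became 0.19 without Trpm2-/- mouse 4 and 0.61 without Trpm2-/- mouse 2. Casp4 and Casp1 are adjacent genes, and per length Casp4 lay above Casp1 in every library, at 0.758 to 1.52 FPKM against at most 0.357 FPKM.

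Gsdmd, the pore-forming substrate of both caspases, had 5.61, 7.13 and 8.90 CPM in WT mice and 6.67, 9.35 and 9.40 CPM in Trpm2-/- mice. The WT values spread more widely than the means of the genotypes differed, and the log2 fold change was 0.23 (SE 0.253, 95% interval −0.34 to 0.80, adjusted p = 0.596). It was 0.07 without WT mouse 1 and 0.41 without WT mouse 3. The ratio of Gsdmd to Pycard in FPKM was 0.488, 0.534 and 0.794 in WT and 0.796, 0.817 and 1.03 in Trpm2-/- mice. These did not overlap, but the highest WT and the lowest Trpm2-/- ratio nearly met.

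Il18, the cytokine released through the gasdermin pore, had 1.85, 3.66 and 2.02 CPM in WT mice and 3.06, 3.00 and 2.55 CPM in Trpm2-/- mice. WT mouse 2 was the highest of all 6, and the 3 Trpm2-/- mice lay between the WT extremes. The log2 fold change was 0.19 (SE 0.355, 95% interval −0.60 to 0.99, adjusted p = 0.768). It ranged from 0.01 to 0.56 when a mouse was left out, with the highest value without WT mouse 2.

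Across the 8 tested members the median log2 fold change was 0.21, with 6 above and 2 below 0, beside a median of 0.02 and 51.6% above 0 for all genes tested. With Nlrp3 and Casp1 fitted without the filter, 7 of 10 were above 0 and the median was 0.20. These counts describe the members and are not a test of them as a group.

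Compared per length, as FPKM, the order of levels in WT kidneys was Mlkl (5.45 ± 0.901), Pycard (4.42 ± 0.431), Ripk1 (3.25 ± 0.150), Gsdmd (2.65 ± 0.597), Il18 (2.13 ± 0.849), Ripk3 (1.93 ± 0.175), Casp4 (0.887 ± 0.151) and Zbp1 (0.720 ± 0.138; all SD, n = 3), with Casp1 and Nlrp3 at or below 0.357 in each library. Between neighbours in this order, ranges overlapped except between Pycard and Ripk1, between Ripk3 and Casp4 and between Zbp1 and Casp1. In Trpm2-/- kidneys Mlkl was again first, at 5.95 to 7.61 FPKM, and its range did not meet that of the next gene. Pycard (3.58 ± 0.575), Ripk3 (3.55 ± 0.790), Gsdmd (3.14 ± 0.584), Ripk1 (3.02 ± 0.585) and Il18 (2.46 ± 0.224) followed with ranges that overlapped from each gene to the next. Casp4 (1.18 ± 0.367) and Zbp1 (0.785 ± 0.251) came after them and also overlapped each other.

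Ripk3 thus moved from the 6th to the 3rd place by mean FPKM, although its Trpm2-/- values did not separate from those of Pycard or Gsdmd. The deposited gene lengths join all exons of a gene, which for Casp4 is 2.59 times the length of its principal transcript and for Ripk3 1.21 times. Per kilobase of principal transcript, Ripk3 held the 6th place in WT mice (2.67 ± 0.235 CPM per kilobase) and the 2nd in Trpm2-/- mice (4.89 ± 1.11).

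Receptors, adaptors and regulators upstream of RIPK1 and RIPK3, some of which restrain necroptosis, were measured as a list of 17 genes, all of them tested. Of these, 4 rose (Tnfrsf10b, Birc3, Casp8 and Ifnar1) and none fell at an adjusted p under 0.05 in edgeR's test. Over all genes tested, 4.74% were called higher. The list had a median log2 fold change of 0.31, with 13 of 17 above 0, beside 51.6% of all genes tested. This list and those below were chosen with earlier results of these data known, so their counts describe them and are not a test. Birc3 encodes cIAP2, a ubiquitin ligase that modifies RIPK1 and holds back its death function. It had 38.0, 47.2 and 33.2 CPM in WT and 102, 76.4 and 69.5 CPM in Trpm2-/- mice (log2 fold change 1.07, SE 0.186, adjusted p = 0.00740).

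Casp8, the protease that cleaves RIPK1 and RIPK3 and so restrains necroptosis, had 62.0, 71.5 and 66.4 CPM in WT and 107, 108 and 98.9 CPM in Trpm2-/- mice (log2 fold change 0.65, SE 0.121, adjusted p = 0.00947). Tnfrsf10b, the TRAIL death receptor, had 31.8, 28.0 and 28.4 CPM in WT and 48.8, 48.3 and 50.5 CPM in Trpm2-/- mice (log2 fold change 0.74, SE 0.122, adjusted p = 0.00578). The Trpm2-/- values of each of these 3 genes all lay above the WT values, as they did for 16.7% of all genes tested. Birc3 passed in all 16 alternatives, Casp8 in all but the one without WT mouse 3 (adjusted p = 0.0660) and Tnfrsf10b in all but the one with the replicate number as a block (adjusted p = 0.0523). Ifnar1, a chain of the type I interferon receptor, had the 4th smallest p of those that rose and lies outside the naming rule. Its log2 fold change was 0.54 (SE 0.136, adjusted p = 0.0333), and it passed in 10 of 16 alternatives. Tnf itself was near the limit of counting, at 0.802, 0.386 and 0.798 CPM in WT and 0.184, 1.16 and 0.872 CPM in Trpm2-/- mice.

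Genes that restrain necroptosis signalling or repair the membrane formed a list of 19, of which 3 rose and none fell (4.74% and 7.28% of all genes tested). The median of this list was −0.05, with 9 genes above and 10 below 0. Those that rose were Pdcd6ip, which encodes the ESCRT-associated protein ALIX (224, 219 and 200 CPM in WT, 354, 279 and 317 CPM in Trpm2-/- mice, log2 fold change 0.56, SE 0.140, adjusted p = 0.0312), and the kinase genes Map3k7 (TAK1; 0.47, SE 0.119, adjusted p = 0.0339) and Ikbkb (IKK-beta; 0.43, SE 0.119, adjusted p = 0.0471). All 3 calls were lost in some alternatives: Pdcd6ip and Map3k7 each passed in 10 of 16 and Ikbkb in 7 of 16.

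**Figure D4:**
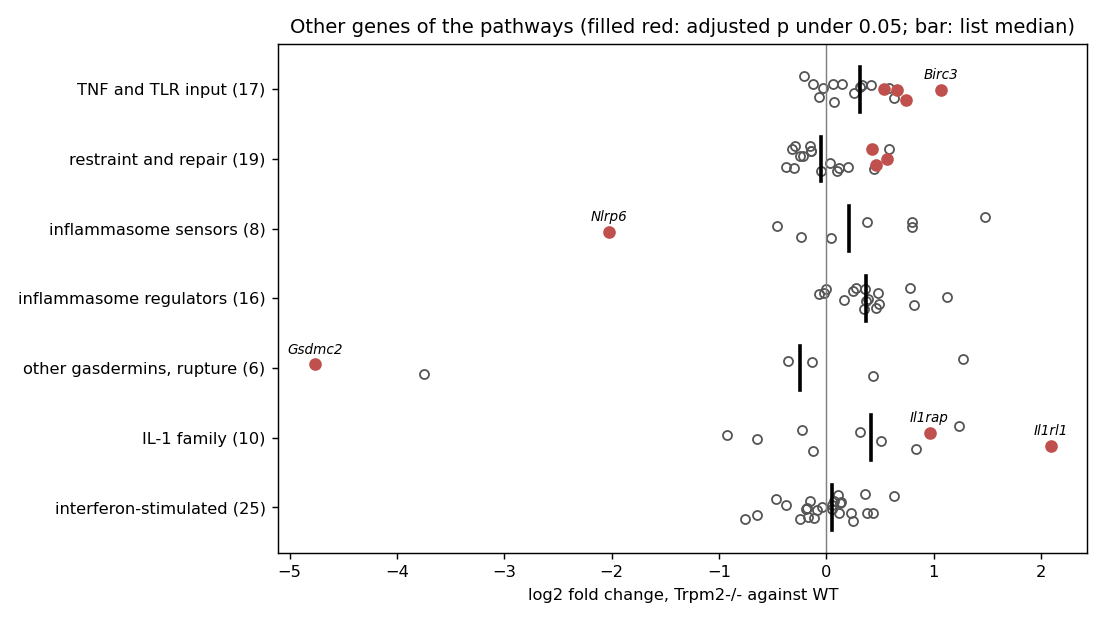
Log2 fold change of Trpm2-/- against WT (x axis) of the tested genes in 7 pathway lists (y axis, number tested in brackets), with each gene as a circle (filled red: adjusted p under 0.05) and the list median as a black bar. Birc3 at 1.07, Nlrp6 at −2.02, Gsdmc2 at −4.76 and Il1rap and Il1rl1 at 0.96 and 2.09 are the named points.

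The plot of the pathway lists shows the inflammasome genes other than the members below the necroptosis lists. Among 14 sensors other than Nlrp3, 8 were tested, none rose and 1 fell (7.28% of all genes tested fell). That gene was Nlrp6, a sensor of epithelial cells, with 101, 109 and 164 CPM in WT and 15.7, 29.7 and 46.6 CPM in Trpm2-/- mice (log2 fold change −2.02, SE 0.346, adjusted p = 0.00699). It passed in all 16 alternatives, and the groups did not overlap. Nlrp6 moved with the proximal tubule markers given above, and the part of those cells in its fall was not tested. Aim2, Mefv, Nlrp10, Nlrp12, Nlrp1a and Nlrp1b were not tested and stayed under 0.80 CPM in every library.

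Of 17 genes that feed or regulate inflammasomes, 16 were tested. None passed an adjusted p under 0.05 in edgeR's test, where 12% of all genes tested did. The list had 13 genes above and 3 below 0, beside 51.6% of all genes tested above 0, and a median of 0.37. DESeq2 called 1. The smallest p belonged to Cd14, the lipopolysaccharide co-receptor (43.9, 47.0 and 33.4 CPM in WT, 103, 70.0 and 46.3 CPM in Trpm2-/- mice, adjusted p = 0.0718), and P2rx7, the ATP-gated channel upstream of NLRP3 (1.42, 2.44 and 2.09 CPM in WT, 3.92, 2.53 and 6.54 CPM in Trpm2-/- mice, adjusted p = 0.103).

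Among the other gasdermins and genes of membrane rupture, 6 of the 10 genes in the table were tested. In edgeR's test 1 fell and none rose (7.28% and 4.74% of all genes tested). The gene that fell was Gsdmc2, with 15.5, 0.321 and 5.40 CPM in WT and 0, 0 and 0.747 CPM in Trpm2-/- mice (adjusted p = 0.0486). The log2 fold change was −4.76, and the call passed in 6 of 16 alternatives. It was lost without WT mouse 1 (log2 fold change −3.47, adjusted p = 0.145), WT mouse 3 (0.0979), Trpm2-/- mouse 1 (0.139) or Trpm2-/- mouse 2 (0.0992). DESeq2, both limma fits of FPKM and limma-voom each called 1 gene of this list, higher in Trpm2-/- mice, and none lower. The urothelial marker Upk3a was, like Gsdmc2, highest in WT mouse 1, at 13.5 CPM, while WT mice 2 and 3 had 0.771 and 3.31 CPM. Upk3a is 1 gene of a list of 8 urothelium markers. The list summed to 331, 247 and 215 CPM in WT mice and 237, 281 and 261 CPM in Trpm2-/- mice, which overlapped. As a median of log2(CPM + 1) over the list, the difference of Trpm2-/- from WT was −1.29. The part of urothelium in the Gsdmc2 values was not tested. Gsdme, chosen after its values were seen, encodes the gasdermin cut by caspase-3. It had 30.9, 33.9 and 30.4 CPM in WT and 23.1, 23.6 and 27.8 CPM in Trpm2-/- mice, which did not overlap (as for 16.8% of genes tested in that direction), with an adjusted p of 0.128.

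Of the interleukin-1 family, its receptors and its antagonists, 10 of the 12 genes in the table were tested, 2 rose and none fell (4.74% and 7.28% of all genes tested). Il1rap, the shared receptor accessory chain, had 6.48, 4.69 and 4.11 CPM in WT and 12.2, 8.19 and 9.40 CPM in Trpm2-/- mice (log2 fold change 0.96, SE 0.262, adjusted p = 0.0426). Il1rl1, the interleukin-33 receptor, stayed at or below 1.65 CPM in every library (log2 fold change 2.09, SE 0.510, adjusted p = 0.0293). They passed in 9 of 16 and 7 of 15 alternatives, respectively. Il1b was not tested, with 0.370, 0.514 and 0.491 CPM in WT and 0.796, 0.273 and 0.374 CPM in Trpm2-/- mice.

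Leukocytes hold many of these transcripts, and so do tubule cells, so markers of both were summed in each library. The sum of 6 pan-leukocyte markers was 19.7 to 45.2 CPM in WT and 21.3 to 38.5 CPM in Trpm2-/- mice (p = 0.8, two-sided exact permutation test, n = 3 per genotype). None of the 6 passed an adjusted p under 0.05 in edgeR's test, where 12% of all genes tested did. Ptprc (CD45), the defining leukocyte gene, had 1.79, 3.08 and 3.37 CPM in WT and 5.08, 3.69 and 5.23 CPM in Trpm2-/- mice, without overlap but with an adjusted p of 0.164. The 10 macrophage markers summed to 111 to 156 CPM in WT and 91.6 to 143 CPM in Trpm2-/- mice (exact permutation p = 0.5). Of them 2, the complement genes C1qa and C1qc, fell at an adjusted p under 0.05, beside 7.28% of all genes tested. Neutrophil markers summed to 3.33 to 14.4 CPM and 6.83 to 13.0 CPM (exact permutation p = 0.7), with the defining gene Ly6g at or below 0.205 CPM. Of the 8 neutrophil markers, 5 were tested and none passed an adjusted p under 0.05, where 12% of all genes tested did. Csf3r, the receptor for granulocyte colony-stimulating factor, is 1 of these markers and not the defining gene. Its values were 0.308, 1.41 and 1.17 CPM in WT and 3.18, 2.18 and 4.79 CPM in Trpm2-/- mice (adjusted p = 0.0549 in edgeR's test). T cell markers reached at most 6.96 CPM, B cell markers 2.65 CPM and NK cell markers 0.514 CPM in any library, and the NK cell gene Ncr1 had no count in any of them. The sums of each immune list thus overlapped between genotypes. Ripk3, Ptprc and Csf3r lay wholly above WT in Trpm2-/- mice, as did 16.7% of all genes tested. Ptprc and Csf3r are each 1 gene of their list, and neither passed the adjusted test. The mean leukocyte sum was 33.8 CPM in WT and 29.5 CPM in Trpm2-/- mice, and the mean neutrophil sum 8.81 and 10.6 CPM. As a median of log2(CPM + 1) over the list, the leukocyte difference had the other sign, at 0.18, and the neutrophil difference was 0.27. The part of leukocytes in the Ripk3 difference was not tested.

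Some sums of tubule markers did separate the genotypes. The 7 markers of injured tubule include Havcr1 (KIM-1) and Lcn2. They summed to 3052 to 3537 CPM in WT and to 5324, 5450 and 4228 CPM in Trpm2-/- mice 1, 2 and 4. At an adjusted p under 0.05, 3 of the 7 rose (Krt20, Sox9 and Cp), beside 4.74% of all genes tested. The injured tubule sum separated the genotypes, as did those of proximal tubule and collecting duct (1320 to 1632 CPM in WT, 803 to 966 CPM in Trpm2-/- mice). Each had the smallest exact permutation p that 3 against 3 mice allow, 0.1, not adjusted over the lists. Of the 7 collecting duct markers, 2 fell at an adjusted p under 0.05, beside 7.28% of all genes tested. As a median of log2(CPM + 1) over the list, the genotype difference was −0.05 for collecting duct and −1.79 for proximal tubule. Markers of the thick ascending limb and distal tubule overlapped (1044 to 2269 CPM in WT, 369 to 1104 CPM in Trpm2-/- mice), and so did those of urothelium (215 to 331 CPM and 237 to 281 CPM). The urothelium difference was −4.49 in summed CPM and −1.29 as a median of log2(CPM + 1). Of its 6 tested markers, 1 fell at an adjusted p under 0.05, beside 7.28% of all genes tested. Among the Trpm2-/- mice, mouse 4 had both the lowest injured tubule sum and the lowest Ripk3. That mouse also stood apart in podocyte markers, at 509.8 CPM against 147 to 172 CPM in the other Trpm2-/- mice, and it had the highest endothelial (238 CPM) and fibroblast and mural (188 CPM) sums of all 6. The part of these cell types in the Ripk3 difference was not tested.

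**Figure D5:**
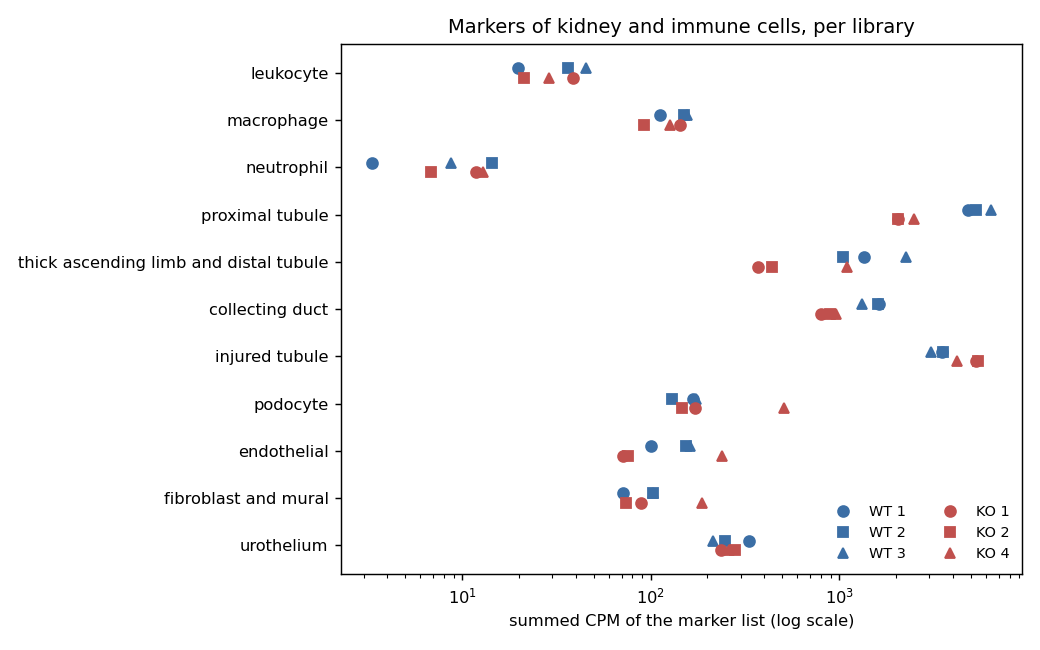
Summed CPM (x axis, log scale) of the markers of 11 cell types (y axis) in each WT (blue) and Trpm2-/- library (red). The injured tubule sums lie at 3052 to 3537 CPM in WT and 4228 to 5450 CPM in Trpm2-/- mice, the proximal tubule sums fall from at least 4798 to at most 2487 CPM, and the leukocyte, macrophage and neutrophil sums overlap.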

How the data were processed

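Total RNA of the kidneys of 3 WT and 3 Trpm2-/- mice was isolated with Trizol, and libraries were made with a NEBNext kit and sequenced on an Illumina instrument. The authors deposited whole-number read counts per gene, not normalized, and FPKM values made from them with library totals above the summed counts. The submitters' processing notes name HISAT2, StringTie and mm9. Versions, the counting tool, strand use and read length are not given in the sources used here. Gene positions equal GENCODE M21 on GRCm38.

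The counts were fitted with edgeR 4.0.16 (R 4.3.3), using filterByExpr with its defaults (15816 of 28884 genes with a count kept), TMM, a genotype-only quasi-likelihood model (common dispersion 0.0445), two-sided tests and Benjamini-Hochberg adjustment. The SE was taken as the size of the log2 fold change over the root of F. Samples were grouped by their labels. Alternatives used DESeq2 1.42.0, limma-voom and limma 3.58.1 on log2(FPKM + 1) and log2(FPKM + 0.1), other size factors and filters, removal of 37 mitochondrial genes, the replicate number as a block, and each mouse left out.

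Tested on simulated counts for the comparison of Trpm2-/- with WT (15551 genes, fold change of 4), edgeR recovered 192 of 193 changed genes (99.5%) with 7 others called. The simulation gave every gene the same dispersion and a larger change than was fitted for any tested member. It therefore checks that the fit works and does not measure the power to find changes of the members' size. Ratios and marker sums were compared by exact permutation. Replicates of a genotype differed by more than sampling noise (chi-square per degree of freedom 13.5 to 36.7). Depth limits precision through counting error: a count of 0 allows up to 3 counts. All members are named. From each pathway list, genes at an adjusted p under 0.05 are named, up to 3 in each direction by p, otherwise the 2 with the smallest p. The lists (input from TNF and Toll-like receptors, restraint and repair, sensors, regulators, gasdermins, interleukin-1 family, interferon-stimulated genes, and cell markers, urothelium and distal tubule included) come from general knowledge. Members and lists were chosen with earlier results of these data known. Promoters are from RefSeq (GRCm38.p6), with 8 of 10 members matched. RHIM codons were searched in frame in GENCODE M21 coding sequences.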

Additional observations from a re-analysis of the deposited data

How the results depend on the processing

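Of the 8 tested members, 6 kept the sign of their fold change in all 16 alternatives. Ripk1 and Zbp1 turned without Trpm2-/- mouse 4, from −0.12 to 0.0027 and from 0.11 to −0.076 (ranges over the fits without 1 mouse −0.29 to 0.00 and −0.08 to 0.35). Ripk3 lost its call in limma-voom (log2 fold change 0.84, adjusted p = 0.0617) and in 5 of the 6 fits without 1 mouse (0.74 to 0.93). The fit without Trpm2-/- mouse 4 kept it, at 1.05. The count of members at an adjusted p under 0.05 went from 1 to 0 in limma-voom and was 0 to 1 over the fits without 1 mouse. The count past the study's threshold went from 0 to 1 with no filter on low counts (Nlrp3) and was 0 to 1 without 1 mouse (Ripk3, without Trpm2-/- mouse 4). Replicate numbers 1 and 2 occur in both genotypes. The deviations of same-numbered mice from their genotype mean correlated at 0.119 and 0.00572 (other pairs −0.321 to 0.261). With so few pairs, this cannot show whether same-numbered mice shared anything beyond the number. WT mouse 3 and Trpm2-/- mouse 4 have no same-numbered partner. The genotype estimates of the replicate block therefore rest on mice 1 and 2 of each genotype. With this block the Ripk3 log2 fold change was 0.98 (adjusted p = 0.0944) and 0 members were called. The counts of all genes were 341 higher and 661 lower, against 750 and 1152 in the fit of all 6 mice without it. The block gave 0 genes for the interleukin-1 family, 0 for restraint and repair and 1 for regulators of inflammasomes. Over fits without 1 mouse, 160 to 819 genes were higher and 470 to 1240 lower at an adjusted p under 0.05, and 476 to 743 were higher and 538 to 863 lower at the study's threshold, against 553 and 649. The low end at an adjusted p came without WT mouse 3 (160 and 470), and it was 176 and 521 without WT mouse 2 and 421 higher without Trpm2-/- mouse 1. With no filter, 1262 were higher at an adjusted p and 1073 at the study's threshold. On log2(FPKM + 1), where low genes are shrunk, 81 were higher and 386 lower at that threshold. Counts in the lists moved as well. The gasdermin list went from 1 to 0 with upper-quartile scaling, 0 without mitochondrial genes and 3 with no filter (0 to 2 without 1 mouse). The interleukin-1 list went from 2 to 1 at a mean CPM of at least 1 and to 0 on log2(FPKM + 1) and log2(FPKM + 0.1) (0 to 3 without 1 mouse). The regulators went from 0 to 2 with no filter and 1 with DESeq2 (0 to 1 without 1 mouse), and the interferon-stimulated genes from 0 to 3 and 1 (0 to 4 without 1 mouse). The restraint list gave 0 to 3 and the TNF and Toll-like receptor list 2 to 5 without 1 mouse. As a median of log2(CPM + 1), the genotype difference turned from −4.25 (summed CPM) to 0.18 for leukocyte markers and from −0.15 to 0.0030 for B cell markers. The cause of these changes was not tested beyond what each alternative changes. Low counts kept Casp1, Nlrp3 and Il1b out of the test.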
